A study of Danio rerio with 6 samples.

Results

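The collagen hydroxylases and collagen chaperones are here 10 genes whose products modify, fold or trim procollagen. They were taken by symbol from a deposited count table of zebrafish fin cells: plod1a, plod2, plod3, p4ha1a, p4ha1b, p4ha2, p3h1, crtap, serpinh1b and pcolcea, out of 30841 features with 1 transcript row kept for each gene. All 10 were in the table and all 10 passed the filter on low counts. The table holds 6 libraries of cells sorted by fluorescence from adult caudal fins 14 days after amputation, 2 libraries for each of osteoblasts, osteogenic mesenchymal progenitors (OMP) and chondrogenic mesenchymal progenitors (CMP). All groups shared the genotype, adult fish of an inbred line of Tubingen origin with 3 transgenes. The first joined cryaa:EGFP, a lens marker, to sox9a:Cre-ERt2, an inducible recombinase in cells that use sox9a. The second, Ola.Actb:loxp-TagBFP-loxp-EGFP, is a reporter that turns from TagBFP to EGFP after recombination. The third, Ola.Sp7:mCherry, marks cells that use sp7, the osteoblast transcription factor. By their titles the osteoblasts were EGFP- and sp7+, the OMP EGFP+ and sp7+, and the CMP EGFP+ and sp7-. The stated aim of the series was the lineage relation of fin mesenchyme to osteoblasts. Group names below are those of the labels.

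Collagen chains are hydroxylated in the endoplasmic reticulum before the triple helix closes. Prolyl 4-hydroxylases act on many prolines and make the helix stable at body temperature, and lysyl hydroxylases prepare the lysines that later carry sugars or crosslinks. In bone, crosslinks built on hydroxylated lysines of the chain ends give the mineralised fibres their strength, and in humans loss of PLOD2, P3H1, CRTAP or SERPINH1 causes brittle bones. SERPINH1, also called Hsp47, holds the folded procollagen until it reaches the Golgi, and procollagen C-proteinase enhancers speed the removal of the C-terminal propeptide outside the cell.

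The libraries held 3915569 to 5281896 reads with 1 row kept for each gene. The sort status in the titles and the reporter reads did not match in every group. The mCherry transcript stood at 803 and 1864 CPM (read counts scaled to library size by the TMM method) in osteoblasts, against 1.64 and 9.88 CPM in OMP and 0.662 and 7.86 CPM in CMP, so the libraries labelled OMP held about as little mCherry as CMP. EGFP lay between 796 and 1115 CPM in all 6 libraries, including those whose titles say EGFP-. TagBFP stood at 21.9 and 44.0 CPM in osteoblasts, 15.3 and 50.8 CPM in OMP and 63.4 and 206 CPM in CMP. The submitters' short names for the groups were Ob-GR for osteoblasts, Ob-G for OMP and Mes-G for CMP. Genes of an osteoblast marker list summed to 205616 and 263554 CPM in osteoblasts, 6476 and 5111 CPM in OMP and 2060 and 1766 CPM in CMP. Bglap, bglapl, col10a1a and col10a1b carried most of the sum in osteoblasts. Of 18 tested, 14 were called higher and 1 lower (alpl) in osteoblasts than in OMP. Against CMP 14 were higher and 1 lower (msx2b) in osteoblasts. In OMP 7 were higher and 3 lower (dlx3b, dlx5a and msx2b) than in CMP. Sp7 itself stood at 161 and 175 CPM in osteoblasts, 10.4 and 8.45 CPM in OMP and 1.99 and 2.18 CPM in CMP. Of 14 cartilage markers 11 were in the table and 4 were tested. The summed cartilage level was 416 and 389 CPM in osteoblasts, 585 and 714 CPM in OMP and 3846 and 4399 CPM in CMP. Hapln1a made up most of it, with 349 and 321 CPM in osteoblasts, 395 and 502 CPM in OMP and 3656 and 4182 CPM in CMP. Of the 4 tested, hapln1a and sox9a were called lower in OMP than in CMP. Matn4 and matn3a had positive log2 fold changes there (0.33 and 0.44) and were not called. Nothing in the labels says whether the 2 libraries of a group came from different animals. The p-values therefore speak of the spread between libraries alone, which may be technical.

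Plod2, the lysyl hydroxylase of the collagen chain ends, differed most among the 10 genes, with its highest level in osteoblasts and its lowest in OMP. It stood at 458 and 464 CPM in osteoblasts, 30.1 and 20.7 CPM in OMP, and 107 and 69.3 CPM in CMP. No library of 1 group overlapped those of another. Osteoblasts exceeded OMP 18.2-fold in plod2 (a log2 fold change of 4.19 with an SE of 0.37, adjusted p = 0.000243 in edgeR's quasi-likelihood test, with the Benjamini-Hochberg method applied over 13399 genes) and exceeded CMP 5.23-fold (2.39, SE 0.34, adjusted p = 0.00195). The 14 alternative settings kept both calls, with log2 fold changes of 3.93 to 4.51 and 2.11 to 2.74. In OMP plod2 was lower than in CMP (log2 fold change -1.80, SE 0.34, adjusted p = 0.0390). That last call was lost when any single one of the 4 libraries compared was left out, with edgeR adjusted p of 0.247 without CMP replicate 1, 0.0965 without CMP replicate 2, 0.0796 without OMP replicate 1 and 0.236 without OMP replicate 2. It was also lost when transcripts were summed (adjusted p = 0.0846), and over all 14 alternatives its adjusted p ran from 0.000125 to 0.247.

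Some markers of other cells differed between the same groups, and within the lists they did not move together. The 16 epidermis markers, all with reads, summed to 2419 and 1759.6 CPM in osteoblasts, 5679 and 6066 CPM in OMP and 9880.4 and 10581 CPM in CMP. The keratin genes krt4, krt91 and krt15 carried most of that sum. Of 15 tested, 3 were lower in osteoblasts than in OMP and 3 lower than in CMP, while the median log2 fold change was 0.09 against OMP and -0.07 against CMP. Epcam (1.08), krt5 (0.66) and tp63 (0.19) were positive against CMP and not called. All 8 mural cell markers had reads, with sums of 212 and 131 CPM in osteoblasts, 349.6 and 240.5 CPM in OMP and 474 and 625 CPM in CMP. Of these 8, 3 were lower and 1 higher in osteoblasts than in OMP, and 5 were lower than in CMP. Leukocyte markers, 9 of 10 in the table with mpeg1.1 at 0, summed to 455 and 311 CPM in osteoblasts, 366 and 239.8 CPM in OMP and 141 and 72.1 CPM in CMP. Mmp9 made up most of this, with 418 and 288 CPM in osteoblasts, 309 and 194 CPM in OMP and 69.6 and 47.5 CPM in CMP, and the other 4 tested leukocyte markers had negative log2 fold changes in osteoblasts against OMP and CMP, none of them called. Erythrocyte markers, 5 of 6 in the table, summed to 247 and 308 CPM in osteoblasts, 2.46 and 12.4 CPM in OMP and 0.442 and 4.52 CPM in CMP. That sum was nearly all cahz, with 246 and 303 CPM in osteoblasts, while the globin genes hbaa1 and hbba2 had at most 3.44 CPM there and up to 5.9 CPM in OMP. The part of these cells in the values of the 10 genes was not tested. In bulk libraries fewer cells of a type and less RNA per cell cannot be told apart.

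The other lysyl hydroxylases varied far less. Plod1a, which acts mainly on lysines within the helix, stood at 199.9 and 121 CPM in osteoblasts, 99.9 and 95.6 CPM in OMP, and 104 and 72.4 CPM in CMP. Both osteoblast libraries lay above the other 4, but they differed from each other by more than the OMP libraries did. Its log2 fold changes of 0.71 (SE 0.34) against OMP and 0.86 (SE 0.34) against CMP were not called (edgeR adjusted p = 0.355 and 0.197). Plod3, which also transfers sugars to hydroxylysine, stood at 72.6 and 75.4 CPM in osteoblasts, 71.4 and 60.6 CPM in OMP, and 51.7 and 51.4 CPM in CMP. The lower osteoblast library and the higher OMP library of plod3 nearly met, and its log2 fold changes of 0.17 against OMP and 0.52 against CMP were not called (edgeR adjusted p = 0.896 and 0.406).

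Per kilobase of transcript, plod2 made up 57.4% and 65.2% of the summed level of the 3 lysyl hydroxylases in osteoblasts. It made up 12.2% and 9.52% in OMP, and 35.3% and 30.7% in CMP. Plod1a was the largest part in OMP, with 49.4% and 53.5%, and plod3 the next, with 38.4% and 36.9%. In CMP the family was more even, with 42.0% and 39.1% for plod1a and 22.6% and 30.2% for plod3. In osteoblasts plod1a held 30.5% and 20.7% and plod3 12.1% and 14.1%. Plod3 is listed at 2 places of the table, and adding both brought it near plod1a in OMP, with 43.8% and 44.4% against 45.0% and 47.2%. In CMP plod3 then held 28.3% and 38.0%, plod1a 39.0% and 34.7% and plod2 32.8% and 27.2%. Plod2 stayed the largest part in osteoblasts, with 54.5% and 61.8%. With 2 libraries a group no exact permutation test of these shares can reach 0.05, so they are given as descriptions.

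**Figure D1:**
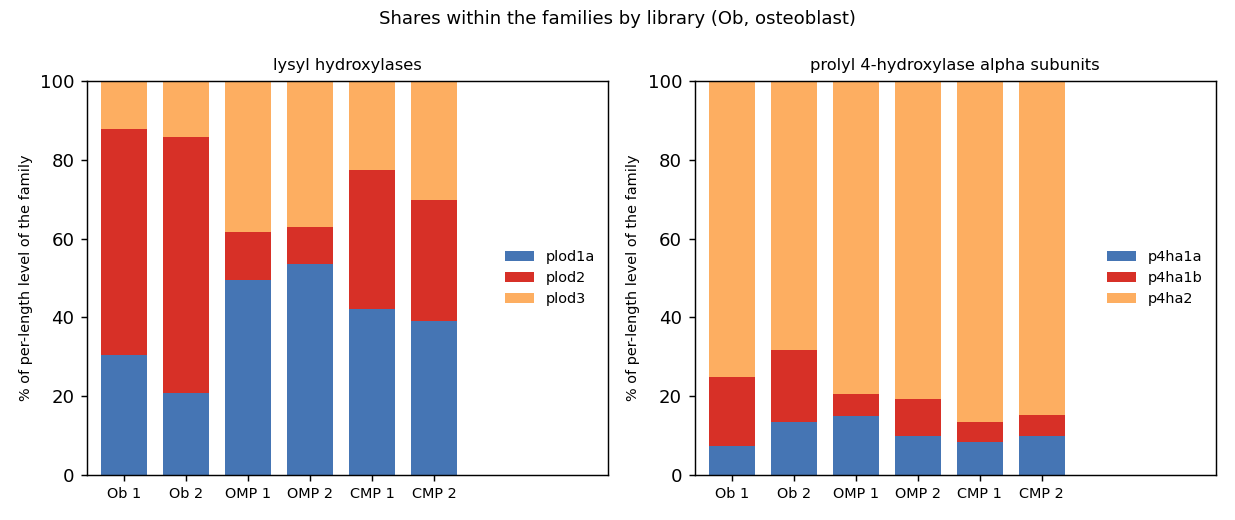
Shares of each gene in the summed level per kilobase of its family (y axis, percent), for the 2 libraries of osteoblasts (Ob), OMP and CMP (x axis). Plod2 takes 57.4% and 65.2% of the lysyl hydroxylase level in osteoblasts and 12.2% and 9.52% in OMP. P4ha2 takes the largest part of the summed p4ha1a, p4ha1b and p4ha2 level in all 6 libraries.

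Of the prolyl 4-hydroxylase alpha subunits, which carry the catalytic site, p4ha1b was higher in osteoblasts than in both progenitor groups. It stood at 58.6 and 65.8 CPM in osteoblasts, 14.5 and 18.5 CPM in OMP, and 10.2 and 8.87 CPM in CMP, with no overlap between groups. Osteoblasts exceeded OMP 3.75-fold (log2 fold change 1.91, SE 0.35, edgeR adjusted p = 0.0104) and CMP 6.53-fold (2.71, SE 0.36, adjusted p = 0.00156). Leaving out OMP replicate 1 or osteoblast replicate 2 ended the call against OMP (edgeR adjusted p = 0.0694 and 0.0534), with a range of 0.000536 to 0.0694 over the 14 alternatives. The call against CMP held in all of them. The log2 fold change of OMP against CMP, 0.80 (SE 0.35), was not called (edgeR adjusted p = 0.520).

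The table lists p4ha1b at 2 places far apart, with 1 accession and reads on both. The row used held 179 and 287 reads in osteoblasts, 53 and 116 in OMP, and 46 and 53 in CMP. The highest row at the other place held 159 and 200 reads in osteoblasts, 52 and 83 in OMP, and 52 and 36 in CMP, so osteoblasts were highest at both places. With the places added, the log2 fold change of osteoblasts was 1.87 against OMP and 2.61 against CMP. The row used held 55.8% of the p4ha1b reads so added and 73.0% of those of plod3, which is also listed at 2 places. If the places hold separate reads, levels of both genes in the single row are understated, by an amount that differs between the genes. Whether some reads were counted at both places was not tested.

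P4ha2 was the most abundant alpha subunit among the 10 genes. It stood at 275 and 265 CPM in osteoblasts, 223 and 172 CPM in OMP, and 199 and 153 CPM in CMP. Both osteoblast libraries were above the other 4, while OMP and CMP overlapped. Its log2 fold changes of 0.45 (SE 0.29) and 0.62 (SE 0.29) for osteoblasts against OMP and CMP were not called (edgeR adjusted p = 0.534 and 0.280). P4ha1a was lower, with 17 and 32.3 CPM in osteoblasts, 26.3 and 13.1 CPM in OMP, and 12.1 and 11 CPM in CMP. Its osteoblast and OMP libraries overlapped, and none of its comparisons was called (edgeR adjusted p of 0.252 to 0.857). The 4 rows of p4ha1a at its first place had 0 reads in all libraries, and its values come from 1 row at the other place.

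Per kilobase, p4ha2 held 75.1% and 68.3% of the summed level of p4ha1a, p4ha1b and p4ha2 in osteoblasts. It held 79.4% and 80.7% in OMP, and 86.7% and 84.8% in CMP. The further alpha subunit p4ha3, not among the 10 genes, was left out of this sum. P4ha1b held 17.5% and 18.5% in osteoblasts, 5.65% and 9.48% in OMP, and 4.84% and 5.39% in CMP. With both places of p4ha1b added the mean shares were 28.2% in osteoblasts, 12.9% in OMP and 9.25% in CMP. P4ha1b thus took a larger share of these 3 genes in osteoblasts under either way of counting, while p4ha2 stayed the largest part in every library.

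**Figure D2:**
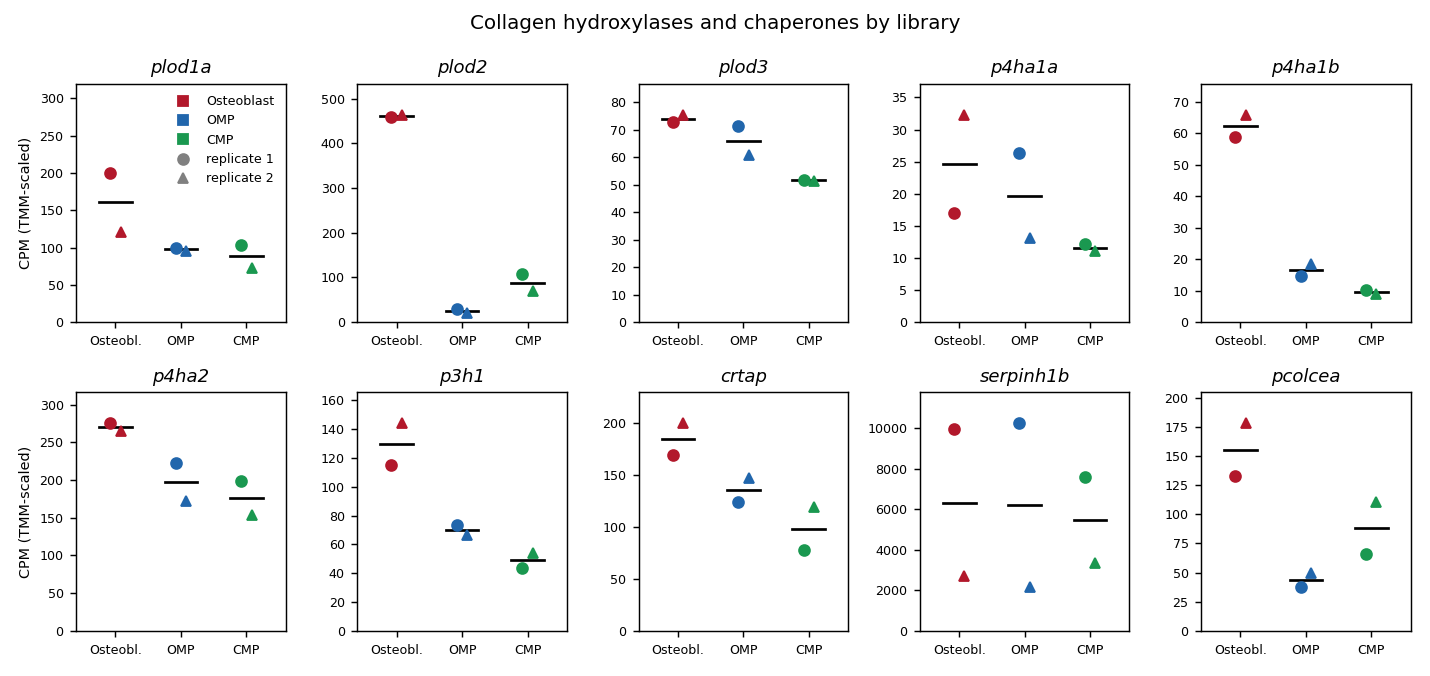
Level of each of the 10 genes (y axis, TMM-scaled CPM, starting at 0) in osteoblasts, OMP and CMP (x axis); circles are replicate 1, triangles replicate 2 and bars the group mean. Plod2 lies at 458 and 464 CPM in osteoblasts and at most 30.1 CPM in OMP, and serpinh1b divides by replicate number in all 3 groups.

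P3h1 and crtap encode the enzyme and its partner protein that, with the cyclophilin Ppib, modify a single proline of type I and type II collagen chains. P3h1 stood at 115 and 144 CPM in osteoblasts, 73.6 and 66.9 CPM in OMP, and 43.9 and 53.9 CPM in CMP. The 3 groups did not overlap, with OMP between the others. P3h1 was 2.66-fold higher in osteoblasts than in CMP, with an edgeR adjusted p of 0.0188 (log2 fold change 1.41, SE 0.31). Its log2 fold changes of 0.89 (SE 0.30) in osteoblasts over OMP and 0.52 (SE 0.30) in OMP over CMP were not called (adjusted p = 0.136 and 0.736). Leaving out CMP replicate 1, CMP replicate 2 or osteoblast replicate 2 ended the call against CMP, with adjusted p of 0.160, 0.0973 and 0.125 in edgeR, and the range over the alternatives was 0.00142 to 0.160. Crtap stood at 169 and 199.6 CPM in osteoblasts, 124 and 147 CPM in OMP, and 77.7 and 119 CPM in CMP. It kept the same order of groups without overlap, and none of its log2 fold changes, 0.44 (SE 0.31) over OMP and 0.91 (SE 0.31) over CMP in osteoblasts and 0.47 (SE 0.31) in OMP over CMP, was called (edgeR adjusted p = 0.607, 0.125 and 0.835). Ppib, named for its place in the complex and outside the rule for named genes, stood at 888 and 884 CPM in osteoblasts, 619 and 728 CPM in OMP, and 458 and 532 CPM in CMP. Its log2 fold change of 0.84 (SE 0.25) for osteoblasts against CMP was not called either (edgeR adjusted p = 0.0776).

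Serpinh1b, the collagen chaperone Hsp47, was the most abundant of the 10 genes, and no difference between groups was called for it. It stood at 9948 and 2701 CPM in osteoblasts, 10225 and 2143 CPM in OMP, and 7606 and 3323 CPM in CMP. Replicate 1 exceeded replicate 2 in each group, 3.68-fold in osteoblasts, 4.77-fold in OMP and 2.29-fold in CMP. Between groups its log2 fold changes were 0.03 for osteoblasts against OMP, 0.21 for osteoblasts against CMP and 0.18 for OMP against CMP, each with an SE of 0.75, and none was called (edgeR adjusted p = 0.996, 0.937 and 1). In this fit, with group as the only term, the large SE leaves sizeable differences between groups undetectable for this gene. Between libraries with the same replicate number, which the labels do not call paired, its log2 ratios ran from -0.63 to 0.43. For the other 9 genes replicate 1 over replicate 2 ran from 0.527-fold for p4ha1a in osteoblasts to 2.01-fold for the same gene in OMP.

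Hsp47 is known as the heat-inducible collagen chaperone, and the summed reads of heat shock genes divided by replicate number in the same way. A list of 18 heat shock genes, 17 of them in the table, took 16% and 7.28% of reads in osteoblasts, 19.8% and 7.33% in OMP, and 17.8% and 11.3% in CMP. On the CPM scale replicate 1 exceeded replicate 2 by 2.42-fold in osteoblasts, 3.44-fold in OMP and 1.81-fold in CMP. Single genes of the list followed this except hspa4b in osteoblasts (1.64 and 15.1 CPM) and hsf1, hsf2 and dnajb1a in CMP. Genes of general protein folding in the endoplasmic reticulum summed to 11490.5 and 6354 CPM in osteoblasts, 11834 and 5465 CPM in OMP and 10576 and 6486 CPM in CMP. Much of that gap lay in hspa5, with 5651 and 2113 CPM in osteoblasts, 6337 and 1869 CPM in OMP and 5133 and 2528 CPM in CMP. Not every gene of that list divided this way. Calr3a was slightly lower in replicate 1 of each group, and dnajb11 was lower in replicate 1 of osteoblasts and OMP. None of the 17 heat shock genes was called between groups by edgeR or DESeq2, and 0 had an unadjusted edgeR p under 0.05. Serpinh1b itself took 0.777% and 0.233% of reads in osteoblasts, 0.953% and 0.255% in OMP, and 0.813% and 0.408% in CMP. Its 3 libraries with the higher share were the 3 with the higher heat shock share. The labels do not say what the replicate numbers mark, and the part of heat shock in the serpinh1b values was not tested. The paralog serpinh1a, chosen after its values were seen, stood at 879 and 799.7 CPM in osteoblasts, 473 and 318 CPM in OMP, and 479 and 398 CPM in CMP. Replicate 1 was the higher in each group there too, by less than for serpinh1b.

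**Figure D3:**
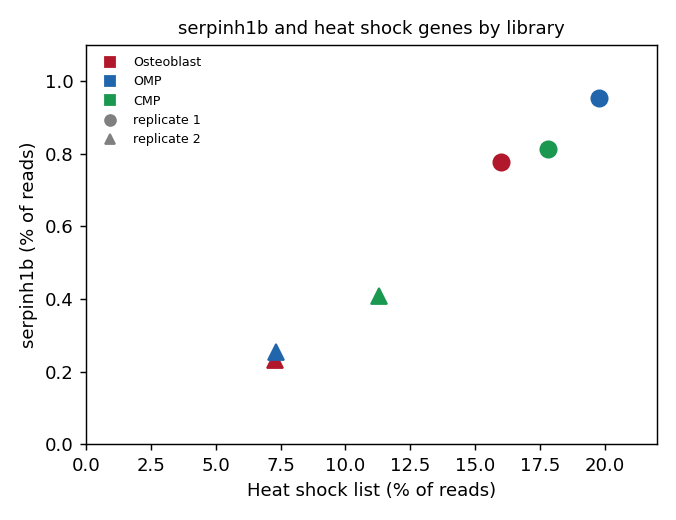
Serpinh1b (y axis, percent of reads) against a heat shock list (x axis, percent of reads) in the 6 libraries; colours are groups, circles replicate 1 and triangles replicate 2. The 3 libraries of replicate 1 lie at 0.777% to 0.953% serpinh1b and 16% to 19.8% heat shock reads, and those of replicate 2 at 0.233% to 0.408% and 7.28% to 11.3%.

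Pcolcea, an enhancer of C-propeptide removal, was lowest in OMP. It stood at 133 and 178 CPM in osteoblasts, 38.0 and 49.4 CPM in OMP, and 66.2 and 110.4 CPM in CMP, without overlap between groups. Osteoblasts exceeded OMP 3.55-fold (log2 fold change 1.83, SE 0.36, edgeR adjusted p = 0.0150). As for p4ha1b, leaving out either of a pair of libraries ended this call, with edgeR adjusted p of 0.0807 without OMP replicate 1 and 0.0761 without osteoblast replicate 2, within 0.000121 to 0.0807 over the alternatives. The log2 fold changes of 0.81 (SE 0.35) for osteoblasts against CMP and -1.01 (SE 0.36) for OMP against CMP were not called (edgeR adjusted p = 0.237 and 0.313). Plod2 and pcolcea were the 2 genes of the 10 with their lowest level in OMP.

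Across the 10 genes, 3 were higher in osteoblasts than in OMP (plod2, p4ha1b and pcolcea), and none lower, beside 2.72% of all genes called higher, 4.61% called lower and 7.34% in either direction. The count of 3 became 1, plod2, without OMP replicate 1 or osteoblast replicate 2. Against CMP 3 were higher (plod2, p4ha1b and p3h1), and none lower, beside 3.91% of all genes called higher, 5.64% called lower and 9.55% in either direction. Between OMP and CMP only plod2 was called, lower in OMP, where 0.619% of all genes were called lower, 0.791% higher and 1.41% in either direction. None of the 10 was called higher in OMP by edgeR or DESeq2, and 0 had an unadjusted edgeR p under 0.05 in that direction. All 10 log2 fold changes were positive in osteoblasts against OMP and against CMP, beside 48.1% and 48.9% of all genes tested. Their medians were 0.58 and 0.88, beside medians of -0.03 and -0.02 over all genes tested. These comparisons share the osteoblast libraries. The 10 genes were also chosen with earlier results of these data known. Their counts beside the shares of all genes, here and below, are therefore descriptions. That count of 10 included serpinh1b and p4ha1a, whose sign turned when single libraries were left out. Against OMP, p4ha1a was at -0.18 without osteoblast replicate 2 and -0.09 without OMP replicate 2. Serpinh1b was at -1.18 against OMP and -1.0 against CMP without osteoblast replicate 1, at -0.70 against OMP without OMP replicate 2, and at -0.26 against CMP without CMP replicate 2. In OMP against CMP 8 of 10 were positive, beside 51.0% of all genes, with a median of 0.27 beside 0.01 for all genes. Among these 8, plod1a, p4ha2 and serpinh1b turned to -0.09, -0.01 and -0.29 without CMP replicate 2. Without OMP replicate 1 p4ha2 was at -0.06 and serpinh1b at -1.38.

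Both osteoblast libraries lay above both CMP libraries for 9 of the 10 genes, and below them for none, where all genes had 22.2% above and 25.7% below. They lay above both OMP libraries for 8 of 10 and below them for none, where all genes had 20.1% above and 22.8% below. Both OMP libraries were above both CMP libraries for 5 of 10 (plod3, p4ha1a, p4ha1b, p3h1 and crtap) and below them for 2 (plod2 and pcolcea), against 18.5% and 17.6% of all genes.

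**Figure D4:**
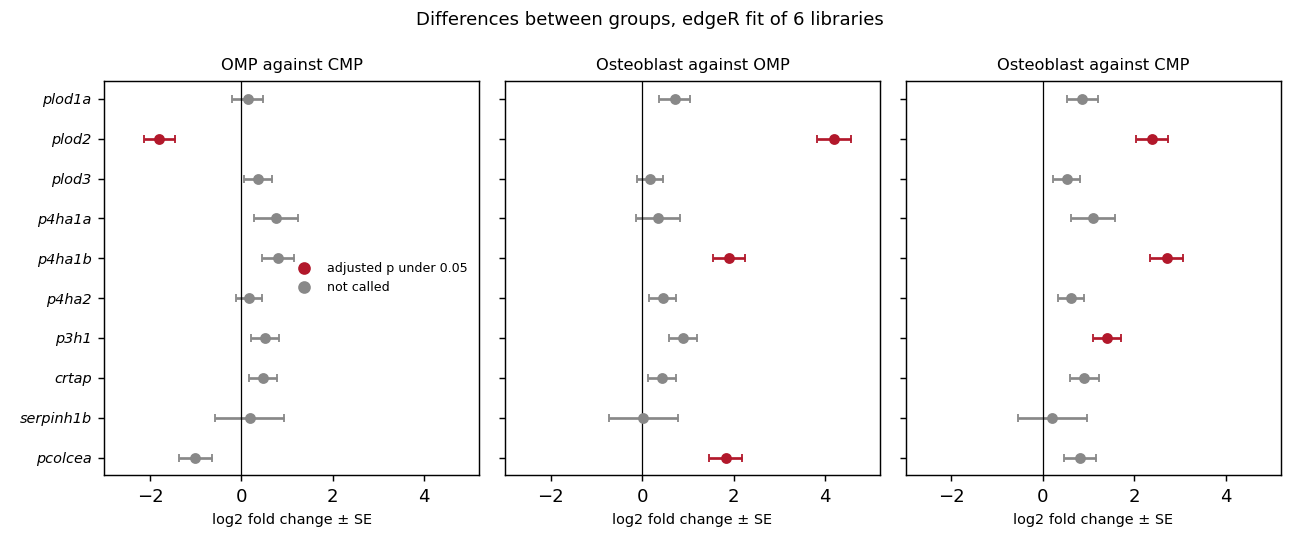
Log2 fold change with its SE (x axis) of each gene (y axis) in OMP against CMP, osteoblasts against OMP and osteoblasts against CMP, from 1 edgeR fit of 6 libraries; red marks an adjusted p under 0.05. Plod2 lies at -1.80, 4.19 and 2.39, and serpinh1b has the widest bars, with an SE of 0.75.

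Levels were compared between genes per kilobase of transcript. In every group serpinh1b came first, with means of 3089.7 ± 2503 CPM per kilobase in osteoblasts, 3021 ± 2792 in OMP and 2669.5 ± 1479.5 in CMP (SD, n = 2), and both of its libraries lay above every other gene. In osteoblasts plod2 came next at 137 ± 1.2 CPM per kilobase, then crtap at 123 ± 14.6 and p4ha2 at 108 ± 2.59. In OMP crtap at 90.6 ± 10.8 and p4ha2 at 78.8 ± 14.3 came after serpinh1b and overlapped, and plod2 was at rank 9 with 7.54 ± 1.97, overlapping p4ha1b at 7.2 ± 1.23. In CMP p4ha2, at 79.4 and 60.9 CPM per kilobase in its libraries, overlapped crtap at 65.4 ± 19.3, which overlapped pcolcea at 46.6 ± 16.5, and plod2 was at rank 6 with 26.2 ± 7.94 CPM per kilobase. With 1 row for each gene, plod2 was thus at rank 2 in osteoblasts, 9 in OMP and 6 in CMP. Crtap and p4ha2 stayed among the first 4 in each group. The single row held 55.8% of the p4ha1b reads and 73% of the plod3 reads over both places of each. The order of plod2 and p4ha1b in OMP, and of plod2 and plod3 in CMP, therefore depends on this choice. With both places added, mean shares of the lysyl hydroxylase level in CMP were 33.1% for plod3 and 30.01% for plod2.

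Type I collagen is the main client of these proteins in bone. Reads of col1a1a, col1a1b and col1a2 together took 10.6% and 11% of reads in osteoblasts, 8.82% and 9.58% in OMP, and 3.12% and 3.36% in CMP. The 9 genes other than serpinh1b took 0.117% and 0.133% in osteoblasts, 0.0653% and 0.0765% in OMP, and 0.0719% and 0.0796% in CMP. Per 1000 reads of type I collagen these 9 genes had 11 and 12.1 reads in osteoblasts, 7.41 and 7.99 in OMP, and 23.1 and 23.7 in CMP. Summed over the 9 genes, CMP thus held the most reads for each type I collagen read and OMP the fewest, with no overlap. Most of the gap between osteoblasts and OMP lay in plod2, with means of 3.49 and 0.288. Plod1a, p4ha1b, p3h1 and pcolcea also had a higher mean in osteoblasts than in OMP. Plod3, p4ha1a, p4ha2 and crtap had a higher mean in OMP. With type V collagen genes added to the denominator the means of the summed genes were 10.9 in osteoblasts, 6.86 in OMP and 18.6 in CMP. Neither denominator holds the type X genes. Col10a1b had 234830 and 470458 reads in osteoblasts against 7217 and 9567 in OMP. For col10a1a these were 124932 and 220531 against 2897 and 3725. The order of osteoblasts and OMP therefore applies to these denominators and not to all collagen reads.

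Plod2 alone had 3.36 and 3.62 reads per 1000 reads of type I collagen in osteoblasts, 0.318 and 0.257 in OMP, and 3.67 and 2.53 in CMP. Osteoblasts and CMP overlapped in this measure, and OMP lay below both. P4ha2 had 2.01 and 2.07 in osteoblasts, 2.35 and 2.13 in OMP, and 6.82 and 5.57 in CMP, so that CMP lay above the other groups. P4ha1b had 0.430 and 0.513 in osteoblasts, 0.153 and 0.229 in OMP, and 0.349 and 0.324 in CMP. It was the only gene of the 10 besides plod2 with a higher mean in osteoblasts than in CMP on this scale. The scale leaves out type X collagen reads, so these readings of single genes hold for type I collagen alone.

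**Figure D5:**
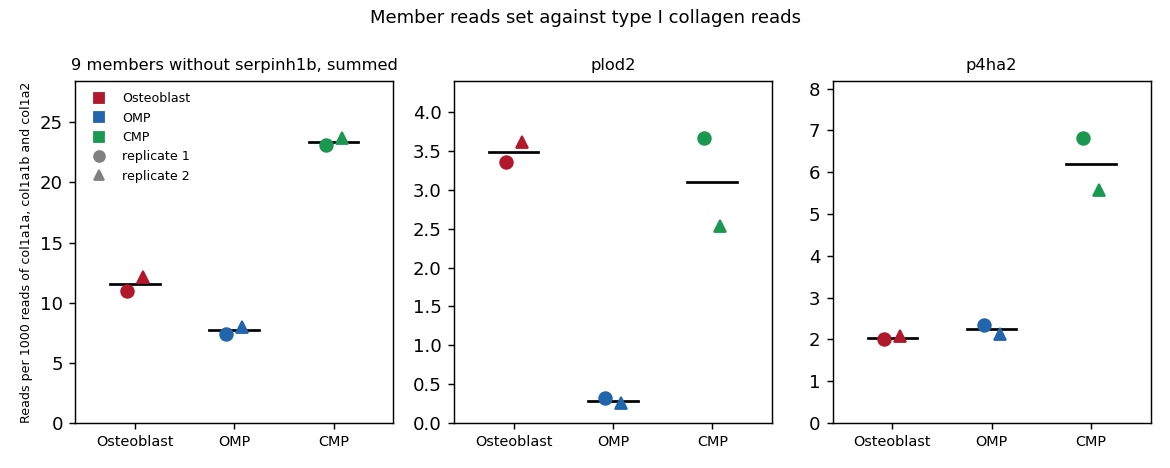
Reads per 1000 reads of type I collagen genes (y axis, starting at 0) for 9 genes summed, for plod2 and for p4ha2, in osteoblasts, OMP and CMP (x axis); circles are replicate 1, triangles replicate 2 and bars group means. The summed genes lie at 11 and 12.1 in osteoblasts and 7.41 and 7.99 in OMP, below 23.1 and 23.7 in CMP.

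Other genes of the pathway were read from lists. Among 13 tested genes of hydroxylation and sugar transfer, p4ha3, a further alpha subunit, was higher in osteoblasts than in CMP (log2 fold change 2.17, edgeR adjusted p = 0.0235). Colgalt2, which adds galactose to hydroxylysine in mammals, was lower in osteoblasts, at 5.23 and 0.687 CPM, against 53.9 and 79.4 CPM in OMP and 49.5 and 60.6 CPM in CMP (-4.58 and -4.31, adjusted p = 0.00360 and 0.00384). These were the only calls of that list in the 3 comparisons. P4hb, the beta subunit that pairs with the p4ha products, was not called, and its reads stood on rows at 2 places, so its level is uncertain.

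Among 14 further genes of collagen folding, sparc and fkbp11 were higher in osteoblasts than in OMP, and these with creb3l1 and kdelr2b were higher than in CMP, with none lower. Sparc, a collagen-binding matrix protein, stood at 32672 and 40356 CPM in osteoblasts, 8963 and 10508 CPM in OMP, and 4347 and 4697 CPM in CMP. Creb3l1, a transcription factor of collagen secretion, stood at 166 and 118 CPM in osteoblasts, 70.6 and 49.2 CPM in OMP, and 25 and 29.6 CPM in CMP (2.38 against CMP, edgeR adjusted p = 0.00244). The list's median log2 fold change was 0.50 against OMP and 0.89 against CMP in osteoblasts and 0.31 in OMP against CMP. None of 14 tested genes of collagen export from the endoplasmic reticulum was called by edgeR in any comparison. An unadjusted p under 0.05 was found for 1 in OMP against CMP, 1 in osteoblasts against OMP and 3 in osteoblasts against CMP, all higher, and DESeq2 called 1 in osteoblasts against CMP. In that comparison 13 of the 14 log2 fold changes were positive (median 0.64), beside 48.9% of all genes tested. None of 20 genes of general protein folding in the endoplasmic reticulum was called by edgeR or DESeq2, 1 had an unadjusted edgeR p under 0.05 in osteoblasts against CMP and 0 in the others, and the medians were 0.15 and 0.18 in osteoblasts against OMP and CMP.

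Of 10 tested genes of propeptide removal, 4 were higher and 1 lower in osteoblasts than in OMP, and 3 were higher than in CMP. Pcolceb, the paralog of pcolcea, stood at 878 and 821 CPM in osteoblasts, 35.6 and 60.4 CPM in OMP, and 145 and 69.9 CPM in CMP (4.14 against OMP and 2.99 against CMP, edgeR adjusted p = 0.000630 and 0.00189). It shared with pcolcea its high level in osteoblasts and its lowest mean in OMP. The proprotein convertase genes furina and furinb were higher in osteoblasts than in both groups, and pcolce2a was higher than in OMP (2.24, adjusted p = 0.0225). Adamts2, which cuts the N-terminal propeptide, went the other way, with 82.8 and 94.6 CPM in osteoblasts against 370.4 and 392 CPM in OMP (-2.10, adjusted p = 0.00224).

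Of 8 tested crosslinking genes, loxl3a and loxl4 were higher in OMP than in CMP (4.52 and 2.45, edgeR adjusted p = 0.00565 and 0.00870). Loxl4, a lysyl oxidase, stood at 817 and 707 CPM in osteoblasts, 35.6 and 31.2 CPM in OMP and 6.18 and 6.02 CPM in CMP. Loxl4 and loxa were higher in osteoblasts than in both progenitor groups, and loxl3a higher than in CMP. Loxl1 and tgm2b were lower in osteoblasts than in both. Tgm2b, a transglutaminase, had 1 and 4 reads in osteoblasts, against 311 and 1201 reads in OMP and 586 and 1243 reads in CMP.

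Collagen genes moved both ways between osteoblasts and OMP, where no gene of the 10 was called lower. Of 8 bone-type fibrillar collagen genes, col1a1b (log2 fold change 1.86) and col1a2 (1.58) were higher in OMP than in CMP. Against OMP, osteoblasts held more col1a1a (1.61) and col5a2b (8.01) and less col5a1 (-2.21), col5a2a (-2.29) and col5a3b (-6.45), and against CMP 4 were higher and 3 lower. Of 10 tested cartilage-type collagen genes, 2 were higher and 1 lower in OMP than in CMP. In osteoblasts 5 were higher and 3 lower than in OMP, and 5 higher and 1 lower than in CMP. The 2 higher in OMP, col10a1a and col10a1b, were also among those higher in osteoblasts in both comparisons. Both stand on the osteoblast marker list as well. Of 11 other collagen genes, 2 were higher in OMP than in CMP, and 8 were lower in osteoblasts than in OMP, among them the type IV genes col4a1 (-4.25) and col4a2 (-4.52). Against CMP 8 of these 11 were lower in osteoblasts and 1, col14a1a, higher (1.86).

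The genes whose profile over the 6 libraries came closest were found by the root mean square distance between centred log2 CPM values, among genes whose log2 CPM averaged 4 or more. For plod2 they were the fibrillar collagen gene col27a1a (0.185), bcar3 (0.264) and ptk2ab (0.377). Col27a1a stood at 73.9 and 73.1 CPM in osteoblasts, 4.92 and 3.82 CPM in OMP, and 18.5 and 15.6 CPM in CMP. Its order of groups is that of plod2 because it was picked by closeness to the plod2 profile in these libraries. For serpinh1b they were hspbp1 (0.096), tomm34 (0.139) and hsp90aa1.2 (0.149). For p4ha1b they were stc2a (0.110), sparc (0.192) and golim4b (0.209), and for pcolcea tmeff1b (0.094), adgrv1 (0.245) and baiap2a (0.267). P3h1 lay closest to si:ch211-170d8.8 (0.104), shc1 (0.114) and tmem45a (0.127), and genes close to crtap included zgc:158619 (0.081) and tubb5 (0.095). Plod3 lay closest to asna1 (0.052), reep5 (0.057) and stx5a (0.070), and p4ha2 to yipf5 (0.066), si:dkeyp-113d7.1 (0.073) and rpia (0.073). Plod1a lay closest to ptbp1a (0.135), fam83hb (0.150) and mmp16a (0.153), and p4ha1a to rassf2a (0.216), prss35 (0.220) and gpc1b (0.225). Within the 10 genes the closest pair was plod3 and p4ha2 (0.169), followed by plod1a and p4ha2 (0.239) and by the complex partners p3h1 and crtap (0.259). The farthest was plod2 and serpinh1b (1.821). A gene with a small range lies close to many others by this measure.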

How the data were processed

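The authors deposited 1 table of raw counts per RefSeq transcript, with 75811 rows, beside RPKM and TPM values and transcript lengths. Reads were aligned with HISAT2 2.2.1 and counted with featureCounts 2.0.3 on GRCz11, per the submitters' processing notes, and the strand setting, not given in those notes, leaves reads of overlapping genes unresolved. Per the labels' protocols, sorted cells were lysed directly, RNA was purified on micro columns, and libraries were built with an MGIEasy kit sold under an exome name. The deposited RPKM values, scaled by the authors to transcript length and library size, were not used. The deposited TPM values are counts per length scaled by the authors to 1 sum a library. They served only to recompute the family shares, which they must reproduce by construction, so they are no independent check.

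Reads shared by transcripts stand on each of them, so the row with the highest total stood for its gene. The deposited counts went into edgeR 4.0.16 under R 4.3.3 (TMM, filterByExpr, quasi-likelihood test, group as the only term, 6 libraries in 1 fit, 3 residual degrees of freedom). A gene was called at a two-sided Benjamini-Hochberg adjusted p under 0.05 over 13399 genes. CPM values are TMM-scaled. Log2 CPM profiles used a prior count of 2. DESeq2 1.42.0 was an alternative. The fit was also run on simulated counts, drawn independently for each library with the same dispersion for every gene. Real libraries with 1 replicate number deviated together, so the simulation does not show how the fit behaves on them. The 10 member genes and all gene lists were chosen with earlier results of these data known. Genes were named by a rule: the 10 members, the called genes with the smallest p of each pathway list and comparison (up to 4, or all where a list had 5 or fewer), and the 3 closest profiles of each member. A single result under this rule is not reported here. Member symbols matched a RefSeq gene table of GRCz12tu, used for names only. The replicate block and the other alternatives are given at the end.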

Additional observations from a re-analysis of the deposited data

How the results depend on the processing

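Called fold changes of the 10 genes kept their sign under all 14 alternatives. The replicate numbers of the labels are shared by the groups, but nothing says that they pair the libraries. Deviations of libraries with 1 number correlated across genes at 0.34 for OMP and CMP, 0.38 for osteoblasts and OMP and 0.30 for osteoblasts and CMP. The replicate block gave 334 higher and 288 lower genes in OMP against CMP (106 and 83 without it), 692 and 1062 in osteoblasts against OMP (365 and 618) and 947 and 1270 in osteoblasts against CMP (524 and 756). With the block 2 of the 10 genes were lower in OMP than in CMP, 7 were higher in osteoblasts than in CMP and 4 higher than in OMP. The calls gained were pcolcea in OMP against CMP (adjusted p = 0.0235 in edgeR), p3h1 in osteoblasts against OMP (0.0213), and crtap (0.00821), pcolcea (0.0166), plod1a (0.0239) and p4ha2 (0.0363) in osteoblasts against CMP. With the block serpinh1b in OMP against CMP was at -0.11.

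DESeq2 called 218 higher and 183 lower in OMP against CMP. Without a filter on low counts 304 and 281 were called there, and 564 and 989 in osteoblasts against OMP. Summed transcripts gave 40 and 18 in OMP against CMP, with 0 of the 10 genes. The edgeR fit with adjusted deviances, chosen after seeing the data, gave 125 lower there. The causes were not tested. Leaving out 1 library gave 5 to 127 higher and 3 to 125 lower genes in OMP against CMP, 205 to 336 and 336 to 540 in osteoblasts against OMP, and 275 to 552 and 438 to 787 in osteoblasts against CMP. Of the 10 genes 0 to 1 were then called lower in OMP than in CMP, 1 to 3 higher in osteoblasts than in OMP and 2 to 3 higher than in CMP. Of 180 such values of the 10 genes 11 lost a call and 11 changed sign, none of them from a called value. The ranges were -0.09 to 0.44 for plod1a, -0.06 to 0.38 for p4ha2 (-0.01 without CMP replicate 2) and -1.38 to 0.91 for serpinh1b in OMP against CMP. They were -0.18 to 0.96 for p4ha1a and -1.18 to 1.6 for serpinh1b in osteoblasts against OMP, and -1.0 to 0.94 for serpinh1b in osteoblasts against CMP.

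With the highest rows of each place summed, also chosen after seeing the data, mean shares in osteoblasts, OMP and CMP were 17.6%, 44.1% and 33.1% for plod3, 28.2%, 12.9% and 9.25% for p4ha1b and 62.7%, 75.4% and 82.0% for p4ha2, and 46.1% in OMP and 36.8% in CMP for plod1a. Reads per 1000 of all bone-type fibrillar collagen genes were 6.86 in OMP and 18.6 in CMP for the 9 genes. P4ha1a had 52 to 141 reads a library, which limits its precision.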
